A study of Arabidopsis thaliana with 12 samples.

Results

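The early flavonoid and flavonol genes of Arabidopsis thaliana are described here as a set of 10 genes out of 20869 that had a value in at least 1 library. They were chosen by name, with earlier results of these data known. Of these, 7 code for proteins of the pathway, namely 4CL3 (AT1G65060), CHS (AT5G13930), CHI (AT3G55120), CHIL (AT5G05270), F3H (AT3G51240), FLS1 (AT5G08640) and UGT78D1 (AT1G30530). The other 3 code for its MYB activators MYB11 (AT3G62610), MYB12 (AT2G47460) and MYB111 (AT5G49330). The study sequenced poly-A RNA from whole seedlings of 4 genotypes, each with 3 biological replicates of 15 pooled seedlings, which gives 12 libraries. All were in the Col background, were 7 days old and were grown on MS plates with 12 h of light and 12 h of dark at 21 °C. The groups were WT (Col-0), the single mutant smxl5-1, the double mutant smxl4-1 smxl5-1, which carries the smxl5-1 allele as well, and the single mutant smax1-2. Their names refer to members of the SMXL family of nuclear regulators. SMXL4 and SMXL5 are known for their part in phloem formation, and SMAX1 for karrikin signalling.

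Flavonoids are made from a coenzyme A ester of coumaric acid. Chalcone synthase and the next few enzymes lead to dihydroflavonols, where the pathway forks: flavonol synthase makes flavonols, which are then joined to sugars, and dihydroflavonol reductase opens the branch to anthocyanins. In Arabidopsis seedlings the early genes and FLS1 are known targets of MYB11, MYB12 and MYB111, whereas the anthocyanin branch depends on complexes of a MYB such as PAP1 with a bHLH protein and TTG1, and light acts on the early genes through factors such as HY5 that bind ACGT cores.

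The DNA just upstream of 4 of the genes is shown because CHS, CHIL and F3H had the largest differences between the double mutant and WT, and FLS1, the flavonol step, did not pass the test. These 4 were picked after their values were seen. Each sequence is the 300 bases that end at the base before the annotated start of the gene, on the plus strand of the RefSeq genome of build TAIR10.1, which may differ from the build TAIR10 that the authors aligned to. The positions are chr5:4488176-4488475 for CHS, chr5:1562986-1563285 for CHIL, chr3:19024892-19025191 for F3H and chr5:2803533-2803832 for FLS1, and no other annotated gene overlaps them. Capitals mark matches on either strand to the G-box CACGTG, to the core ACGT, which every G-box contains, and to the AC elements ACCTANC and ACCAACC that MYB proteins are known to bind.
CHS: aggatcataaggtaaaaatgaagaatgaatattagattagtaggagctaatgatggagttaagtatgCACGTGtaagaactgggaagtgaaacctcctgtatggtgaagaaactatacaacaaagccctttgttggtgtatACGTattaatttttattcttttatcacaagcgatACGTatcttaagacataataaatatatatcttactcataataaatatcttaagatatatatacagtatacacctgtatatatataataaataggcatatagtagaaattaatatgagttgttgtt
CHIL: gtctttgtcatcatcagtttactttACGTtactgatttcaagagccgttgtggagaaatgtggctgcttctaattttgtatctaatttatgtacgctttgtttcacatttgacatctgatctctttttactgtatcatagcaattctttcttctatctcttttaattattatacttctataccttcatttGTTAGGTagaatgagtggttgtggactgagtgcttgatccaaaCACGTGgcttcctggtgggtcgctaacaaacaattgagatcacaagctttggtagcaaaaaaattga
F3H: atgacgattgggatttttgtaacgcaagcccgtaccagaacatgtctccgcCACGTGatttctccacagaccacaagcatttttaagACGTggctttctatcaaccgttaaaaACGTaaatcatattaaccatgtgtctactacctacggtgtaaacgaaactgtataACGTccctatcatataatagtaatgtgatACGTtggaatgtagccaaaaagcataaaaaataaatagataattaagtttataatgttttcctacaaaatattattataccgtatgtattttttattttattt
FLS1: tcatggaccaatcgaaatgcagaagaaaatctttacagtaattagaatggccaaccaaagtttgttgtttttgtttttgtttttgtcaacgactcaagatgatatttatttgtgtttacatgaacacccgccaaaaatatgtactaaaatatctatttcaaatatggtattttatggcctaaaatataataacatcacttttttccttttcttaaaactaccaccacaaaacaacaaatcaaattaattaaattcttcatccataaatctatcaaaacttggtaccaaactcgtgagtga

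Counted from the annotated start, with -1 as the base before it, the G-box began at -233 in CHS, at -67 in CHIL and at -249 in F3H. CHIL also held 1 AC element, at -110 and on the opposite strand. The FLS1 window held none of these letters, and neither did those of CHI and UGT78D1. The first 50 bases after the start were searched as well. CHI had a G-box there, at 40, and further ACGT cores stood in FLS1 at 30, in CHIL at 16 and 44 and in MYB111 at 21. Among the 10 genes 4 windows held a G-box (the fourth is MYB12), against 7.09% of the 27443 windows of the same length before all annotated genes. An ACGT core stood in 6 of the 10 windows and in 49% of all windows. The AC element ACCTANC stood in 2, those of CHIL and 4CL3, and in 6.62% of all windows, and ACCAACC stood in none of the 10 and in 3.18% of all. A match is a description of the letters only, and says nothing of binding.

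The 10 genes are spread over 4 chromosomes. CHS (chr5:4488476-4490264, plus strand) has 2 exons, CHIL (chr5:1563286-1565324, plus) has 5 and FLS1 (chr5:2803833-2805606, plus) has 3 or 4 by transcript. MYB111 (chr5:19998823-20001572, minus) has 3 exons. On chromosome 3 lie F3H (chr3:19025192-19026872, plus, 3 or 4 exons), CHI (chr3:20430059-20431597, minus, 4 exons) and MYB11 (chr3:23154630-23156585, plus, 3 exons). Chromosome 1 holds UGT78D1 (chr1:10814612-10816615, plus, 2 exons) and 4CL3 (chr1:24167202-24171635, minus, 6 or 7 exons), and chromosome 2 holds MYB12 (chr2:19476326-19479597, plus, 3 exons).

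The deposited values are FPKM, fragments per kilobase of transcript scaled to library size, of transcript pieces that were assembled separately in each library, from 27825 to 31919 pieces per library. A gene's value sums its pieces after scaling each FPKM by the share of the reference transcript that the piece covers, and a gene at 0 had no piece listed, which is not a measured absence. The numbers of reads behind the libraries are not given as counts, so precision is taken from the bounds that the authors deposited with each FPKM. Double mutant replicate 2 stood apart, with the most pieces and with the lowest share of pieces given the class code = of a match to a reference transcript (31.8%, against up to 47.2%). The transcripts of the mutated genes did not identify the mutants by a loss: SMXL5 stood at 3.47 to 5.18 FPKM in WT, 40.0 to 50.6 in smxl5-1, 9.0 to 18.2 in the double mutant and 5.11 to 5.29 in smax1-2. SMXL4 stood at 1.81 to 3.01 FPKM in WT and 2.75 to 4.85 in the double mutant, and SMAX1 at 21.3 to 22.5 in WT and 15.1 to 18.2 in smax1-2. Every direction below is therefore between libraries as they are labelled. Leaf markers were high in all groups, as in whole seedlings with green tissue, with a summed level of 6 shoot genes from 40170 to 48540 FPKM. The summed level of 8 root markers was 1921 to 2223 FPKM in WT and 1323 to 1641 in the double mutant, 1698 to 3341 in smxl5-1 and 1890 to 2089 in smax1-2. PYK10, a root beta-glucosidase, made up most of that sum and lay below the WT range by itself (1252 to 1548 FPKM against 1869 to 2155, log2 fold change -0.56, adjusted p = 0.325 by limma). None of the 8 root or 6 shoot genes was called in the double mutant against WT, and the median log2 fold change of the root genes was 0.14. Of 4 seed storage genes CRU3 and SESA1 were at 0 in all libraries, and CRA1 and OLEO1 were listed in double mutant replicate 2 (3.55 and 4.09 FPKM), with CRA1 also in smxl5-1 replicate 1 (1.22 FPKM). The part of these levels in the results below was not tested.

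In WT seedlings the genes covered a wide range, from CHS at 94.8 ± 17.9 FPKM (SD, n = 3) to MYB12 at 2.27 ± 0.210 FPKM. CHS was followed by CHIL at 49.0 ± 1.75 FPKM, and neither overlapped its neighbours in the order. UGT78D1 (25.5 ± 1.09 FPKM) and CHI (24.4 ± 1.32 FPKM) overlapped each other, as did FLS1 (16.6 ± 1.76 FPKM) and F3H (14.7 ± 2.27 FPKM). Below them 4CL3 stood at 9.97 ± 0.873, MYB111 at 3.37 ± 0.447 and MYB12 at 2.27 ± 0.210 FPKM, in an order without overlap, and MYB11 was listed in no WT library. In the double mutant F3H moved up in this order: at 48.1 ± 10.5 FPKM it overlapped CHI and UGT78D1 and lay above every FLS1 value.

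**Figure D1:**
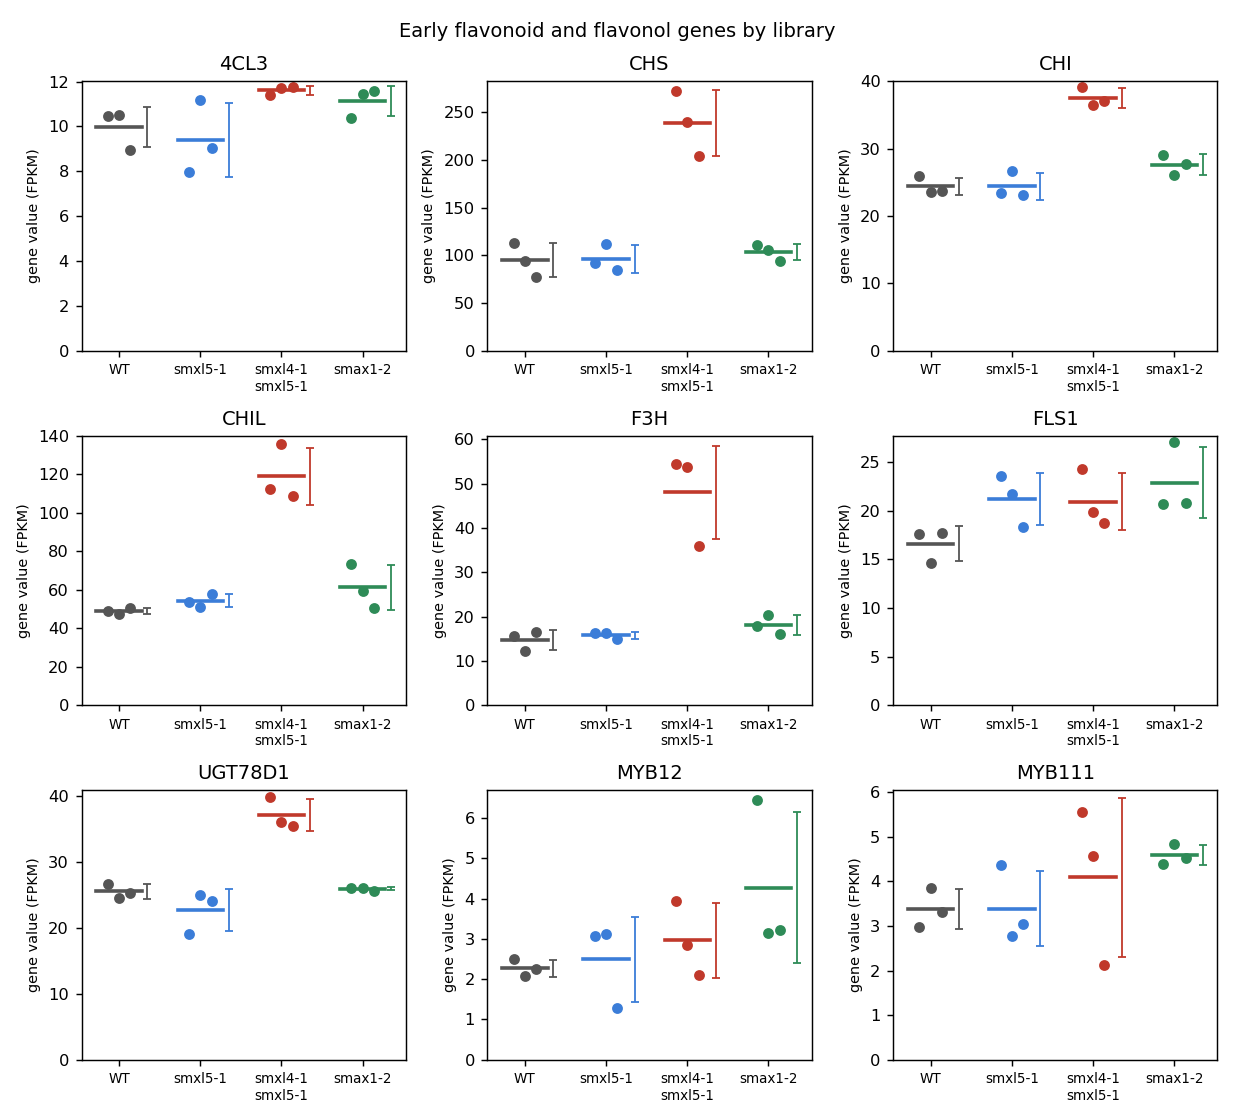
Gene values in FPKM (vertical axis, from 0) of 9 of the 10 genes in each library, by genotype; points are libraries, horizontal lines are means and bars at the side are 1 SD over n = 3. CHS, CHI, CHIL, F3H and UGT78D1 lie higher in all 3 double mutant libraries than in every other library, whereas the FLS1 values of the double mutant lie among those of smxl5-1 and smax1-2, and MYB11, listed in 1 library only, is not drawn.

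In the double mutant, 5 of the 9 genes that could be tested were higher than in WT: CHS, CHI, CHIL, F3H and UGT78D1, by 1.44 to 3.09-fold. FLS1, 4CL3, MYB12 and MYB111 did not pass. In bulk RNA of whole seedlings, more cells with a transcript and more of it per cell cannot be told apart, nor can fewer and less. Of all 19656 genes tested, 0.631% were called higher in this comparison, 0.504% lower and 1.13% in either direction. The members were chosen with earlier results of these data known, so the shares here and below describe the set and do not test it. The 3 libraries of each group did not overlap for 7 of the 9 genes, the 5 that were called and FLS1 and 4CL3, and all 7 lay higher, against 19.1% of all genes tested without overlap and 12.5% without overlap and higher. The median log2 fold change of the 9 genes was 0.52, against 0.07 over all genes. The test was limma on log2(FPKM + 1) in 1 fit of the 12 libraries, with calls made where the p adjusted by Benjamini and Hochberg over all genes was under 0.05, as for every adjusted p below.

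4CL3, an enzyme that activates coumaric acid at the entrance of the pathway, had WT values of 10.4, 10.5 and 8.97 FPKM, against 11.4, 11.7 and 11.8 FPKM for the double mutant. All 3 double mutant libraries lay above those of WT, but by little (log2 fold change 0.20, standard error 0.126, 95% interval -0.075 to 0.48, adjusted p = 0.588). The smax1-2 libraries (10.4, 11.5 and 11.6 FPKM) overlapped those of the double mutant, and the smxl5-1 libraries (7.95, 11.2 and 9.05 FPKM) lay just below them.

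CHS condenses the activated coumaric acid with malonyl units and is the first committed enzyme. The WT libraries gave 113, 94.4 and 77.1 FPKM, those of smxl5-1 gave 91.8, 112 and 84.4, and those of smax1-2 gave 111, 105 and 94.5. CHS reached 272, 240 and 204 FPKM in the double mutant. The lowest double mutant library lay well above the highest of the other 9, and the 3 other groups overlapped each other. CHS was 2.51-fold higher than in WT (log2 fold change 1.33, standard error 0.159, 95% interval 0.97 to 1.68, adjusted p = 0.00419). It was assembled as 1 piece of 1439 to 1513 bases in each of the 12 libraries, against a reference transcript of 1491 bases, and its deposited bounds lay within 3.36 to 4.22% of the FPKM in WT and 2.25 to 2.55% in the double mutant.

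CHI closes the chalcone into naringenin. WT gave 25.9, 23.5 and 23.7 FPKM for CHI, smxl5-1 gave 23.4, 26.7 and 23.1, and smax1-2 gave 29.1, 26.1 and 27.7. The double mutant was at 39.2, 36.4 and 37.0 FPKM, above all other libraries, with the smallest relative spread of the called genes (the highest library was 1.08 times the lowest). The difference from WT was 1.52-fold (log2 fold change 0.60, standard error 0.0823, adjusted p = 0.00784).

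CHIL, a relative of CHI without isomerase activity that promotes flavonoid production, had a larger fold change than CHI, though this difference was not tested. Its WT libraries lay at 48.9, 47.3 and 50.8 FPKM, and those of smxl5-1 at 53.6, 51.3 and 57.8. The double mutant rose to 112, 136 and 109 FPKM, while smax1-2 gave 73.6, 59.6 and 50.5. In smax1-2 replicate 1 the gene was assembled in pieces of 328 and 616 bases, and its 73.6 FPKM became 57.3 with effective lengths. Again all double mutant libraries lay above the other 9, a 2.39-fold difference from WT (log2 fold change 1.26, standard error 0.131, adjusted p = 0.00166). CHI and CHIL were not called against WT when pieces were summed without scaling by length, with log2 fold changes of 0.54 and 1.34 (adjusted p = 0.495 and 0.217). With class codes = and j alone the log2 fold changes were those reported, 0.60 and 1.26, and neither was called (adjusted p = 0.189 and 0.882). The WT and double mutant values were unchanged there. In smax1-2 replicate 1, which is part of the same fit, CHI fell to 17.8 FPKM and CHIL to 0.

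F3H hydroxylates naringenin to a dihydroflavonol and had the largest fold change of the set. F3H levels were 15.6, 12.2 and 16.5 FPKM for WT, 16.2, 16.3 and 14.9 for smxl5-1, and 17.8, 20.4 and 16.0 for smax1-2. The double mutant reached 54.5, 53.7 and 36.0 FPKM. Replicate 3 was the lowest of these and still lay above every library of the other genotypes. F3H was 3.09-fold higher than in WT (log2 fold change 1.63, standard error 0.170, 95% interval 1.25 to 2.01, adjusted p = 0.00166). CHS and F3H were the members called against WT in all 15 alternative fits, with adjusted p from 0.00518 to 0.0213 for CHS and 0.000737 to 0.0105 for F3H when 1 library was left out.

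FLS1, which turns dihydroflavonols into flavonols, gave 17.6, 14.6 and 17.7 FPKM for WT against 24.3, 19.9 and 18.7 for the double mutant. These groups did not overlap, but the difference did not pass (log2 fold change 0.31, standard error 0.147, 95% interval -0.015 to 0.64, adjusted p = 0.452). This interval holds the values seen for CHI and UGT78D1 (0.60 and 0.52) as well as no difference. The double mutant overlapped the other mutants, with 23.6, 21.8 and 18.3 FPKM for smxl5-1 and 20.7, 27.1 and 20.9 for smax1-2. Against smxl5-1 the double mutant differed by -0.02 on the log2 scale (95% interval -0.34 to 0.31, adjusted p = 0.979), and against smax1-2 by -0.12 (95% interval -0.45 to 0.21, adjusted p = 0.819). In smxl5-1 replicates 1 and 2 the gene was assembled in 3 pieces rather than 1, and with effective lengths in place of plain ones its values in smxl5-1 became 19.3, 17.7 and 18.2 FPKM.

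UGT78D1 adds rhamnose to flavonols. The WT values were 26.7, 24.5 and 25.3 FPKM, with 19.1, 25.0 and 24.1 for smxl5-1 and 26.1, 26.1 and 25.6 for smax1-2. UGT78D1 in the double mutant was at 39.8, 36.0 and 35.4 FPKM, above all 9 others. The 1.44-fold difference from WT was called (log2 fold change 0.52, standard error 0.101, adjusted p = 0.0415). This call was lost whichever of the 6 WT and double mutant libraries was left out (adjusted p from 0.0879 to 0.158). It was also lost with the replicate block (adjusted p = 0.113), quantile normalization (0.120), median-of-ratios scaling (0.114), the pair of genotypes alone (0.0653), plain sums of FPKM (0.723) and class codes = and j alone (0.824), with log2 fold changes from 0.415 to 0.64.

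**Figure D2:**
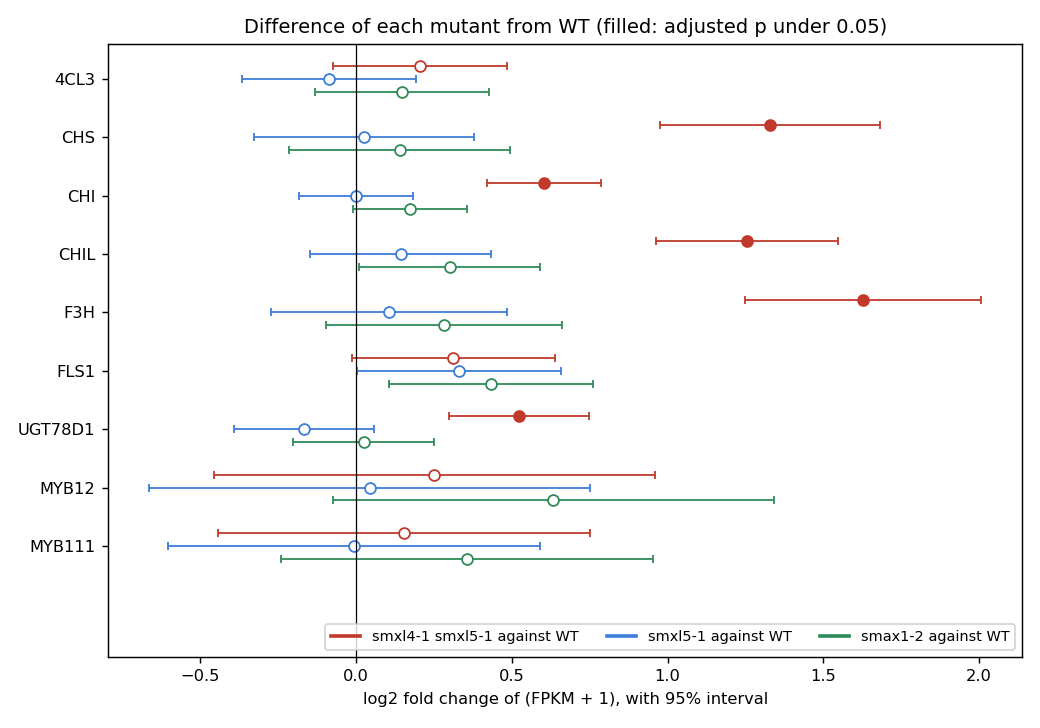
Log2 fold change of (FPKM + 1) against WT (horizontal axis) of each mutant for the 9 tested genes, with 95% intervals; filled points have an adjusted p under 0.05. The filled points are CHS, CHI, CHIL, F3H and UGT78D1 in the double mutant, while FLS1 has nearly the same position in all 3 mutants (0.31, 0.33 and 0.43). With effective lengths FLS1 in smxl5-1 replicates 1 and 2 went from 23.6 and 21.8 to 19.3 and 17.7 FPKM, and its double mutant value stayed at 0.31. The MYB111 value of the double mutant (0.15) turned to -0.20 with effective lengths and to -0.06 without double mutant replicate 1.

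The transcripts of the 3 MYB activators were low. MYB12 gave 2.50, 2.08 and 2.24 FPKM for WT and 3.94, 2.85 and 2.10 for the double mutant, groups that overlapped (log2 fold change 0.25, standard error 0.318, adjusted p = 0.821). For smxl5-1 it gave 3.08, 3.11 and 1.28 FPKM, and for smax1-2 6.44, 3.16 and 3.21. The 6.44 FPKM of smax1-2 replicate 1 became 2.81 FPKM with effective lengths.

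MYB111 gave 2.96, 3.85 and 3.30 FPKM for WT, 4.36, 2.77 and 3.04 for smxl5-1, and 4.40, 4.83 and 4.53 for smax1-2. The double mutant spread from below to above WT, at 5.56, 4.58 and 2.12 FPKM. Its log2 fold change against WT was 0.15 (standard error 0.269, adjusted p = 0.882), which turned to -0.20 with effective lengths (adjusted p = 0.752) and to -0.06 without double mutant replicate 1. Both genes were assembled in parts, MYB12 as 17 pieces of 211 to 1425 bases over the 12 libraries and MYB111 as 19 pieces of 229 to 1349 bases. The deposited bounds of their pieces in WT and the double mutant lay 21.8 to 53.4% from the FPKM, and the 95% intervals of their log2 fold changes against WT ran from -0.46 to 0.96 for MYB12 and from -0.44 to 0.75 for MYB111. These intervals hold the values seen for CHI and UGT78D1 (0.60 and 0.52) as well as 0. MYB11 was listed in 1 library, double mutant replicate 2, as a single piece of 245 bases at 15.3 FPKM (bounds 8.29 to 22.4), which gives a gene value of 3.02 FPKM, and it was not tested.

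By its labels, the comparison of the double mutant with smxl5-1 asks what differs when smxl4-1 is added, since both carry smxl5-1. The SMXL5 transcript itself differed between them, at 40.0 to 50.6 FPKM in smxl5-1 and 9.0 to 18.2 in the double mutant. The part of that difference in the results was not tested. The same 5 genes were called higher, against 1.2% of all genes called higher and 2.99% called in all. CHS differed by 1.30 on the log2 scale (adjusted p = 0.00393), F3H by 1.52 (adjusted p = 0.00247), CHIL by 1.11 (adjusted p = 0.00329), UGT78D1 by 0.69 (adjusted p = 0.00835) and CHI by 0.60 (adjusted p = 0.00622). All 5 calls held whichever 1 of the 6 libraries was left out. In a fit of these 2 genotypes alone CHIL was the 1 member called, with CHS at an adjusted p of 0.0540 and F3H at 0.0532. Calls over all genes came to 58 there, against 588 in the fit of all 12 libraries, to which the values below belong. 4CL3 did not pass (log2 fold change 0.29, adjusted p = 0.270), but its groups did not overlap. In all, 6 of 9 genes lay higher without overlap, against 9.35% of all genes, and 20.4% did not overlap in either direction.

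Against smax1-2 the double mutant was higher for these 5 genes too, where 0.809% of all genes were called higher and 1.55% in all. The log2 fold changes were 1.19 for CHS (adjusted p = 0.00633), 1.35 for F3H (adjusted p = 0.00442) and 0.95 for CHIL (adjusted p = 0.00715). CHI (0.43, adjusted p = 0.0339) and UGT78D1 (0.50, adjusted p = 0.0441) were called, but neither was when any 1 of the 6 libraries was left out (adjusted p from 0.0719 to 0.114 and from 0.0965 to 0.137). These 5 were also the genes that did not overlap, 5 of 9 against 8.16% of all genes higher without overlap and 17.9% in either direction. The comparisons of the double mutant share its 3 libraries, and those with WT share the WT libraries, so they are not independent of each other.

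Neither single mutant had a member called against WT, by limma at an adjusted p under 0.05. In smxl5-1 the count was 0 of 9, against 0.351% of all genes, with 1 member, FLS1, at an unadjusted p under 0.05 (log2 fold change 0.33, unadjusted p = 0.0485, adjusted p = 0.405 by limma). FLS1 and CHIL (log2 fold change 0.14) did not overlap between smxl5-1 and WT, 2 of 9 genes, both higher, against 19% of all without overlap and 13.6% without overlap and higher. In smax1-2 the count was 0 of 9, against 0.0356% of all genes, with FLS1 (log2 fold change 0.43, adjusted p = 0.658) and CHIL (0.30, adjusted p = 0.728) at an unadjusted p under 0.05. CHI, FLS1, MYB12 and MYB111 did not overlap between smax1-2 and WT, 4 of 9, all higher, against 17.3% of all without overlap and 12.9% without overlap and higher. With effective lengths CHI did overlap (24.97 FPKM in smax1-2 replicate 1, with WT replicate 1 at 25.58). MYB111 then overlapped as well (2.91 to 3.43 FPKM in smax1-2 and 2.97 to 3.62 in WT), while FLS1 and MYB12 did not. The median of all genes stood at 0.09 in smax1-2 and moved to -0.02 with quantile normalization, so small differences of this sign are to be read against that shift. Between smxl5-1 and smax1-2 none of the 9 was called (0.224% of all genes were) or had an unadjusted p under 0.05, and UGT78D1, MYB12 and MYB111 did not overlap (3 of 9, against 18%). With effective lengths MYB12 did overlap, up to 2.94 FPKM in smxl5-1 and from 2.81 in smax1-2. So did MYB111, up to 2.93 FPKM in smxl5-1 and from 2.91 in smax1-2. UGT78D1 then stayed just apart, up to 24.28 FPKM in smxl5-1 and from 24.29 in smax1-2.

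The different course of F3H and FLS1 was measured within each library as the log2 ratio of their values, each with 1 FPKM added. F3H over FLS1 was -0.17, -0.25 and -0.10 in the WT libraries, so F3H was the lower of the pair. It was 1.13, 1.39 and 0.91 in the double mutant. The means were 1.14 ± 0.243 in the double mutant, -0.17 ± 0.0727 in WT, -0.40 ± 0.115 in smxl5-1 and -0.32 ± 0.101 in smax1-2 (SD, n = 3). The double mutant overlapped no other group, and each of its 3 differences (1.31, 1.54 and 1.47) had p = 0.1 in a two-sided exact permutation test, adjusted p = 0.1 over the 6 ratio comparisons, the smallest value that 3 libraries against 3 allow. The smxl5-1 ratios depend on how the FLS1 pieces of its replicates 1 and 2 are scaled. With effective lengths the double mutant differed from smxl5-1 by 1.38 and from WT by 1.33. With plain sums these differences were 2.048 and 1.235.

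The same ratio for DFR, the dihydroflavonol reductase that uses the substrates of FLS1 for anthocyanins, moved further. DFR over FLS1 was -3.10, -1.91 and -2.90 in WT and 2.05, 2.19 and 2.35 in the double mutant. FLS1 was thus the higher of these genes in all 3 WT libraries and DFR in all 3 of the double mutant. The means were -2.64 ± 0.633 in WT, 2.20 ± 0.151 in the double mutant, -2.01 ± 0.830 in smxl5-1 and -1.98 ± 0.675 in smax1-2, without overlap of the double mutant with any other group (exact permutation p = 0.1, the smallest possible, for each).

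**Figure D3:**
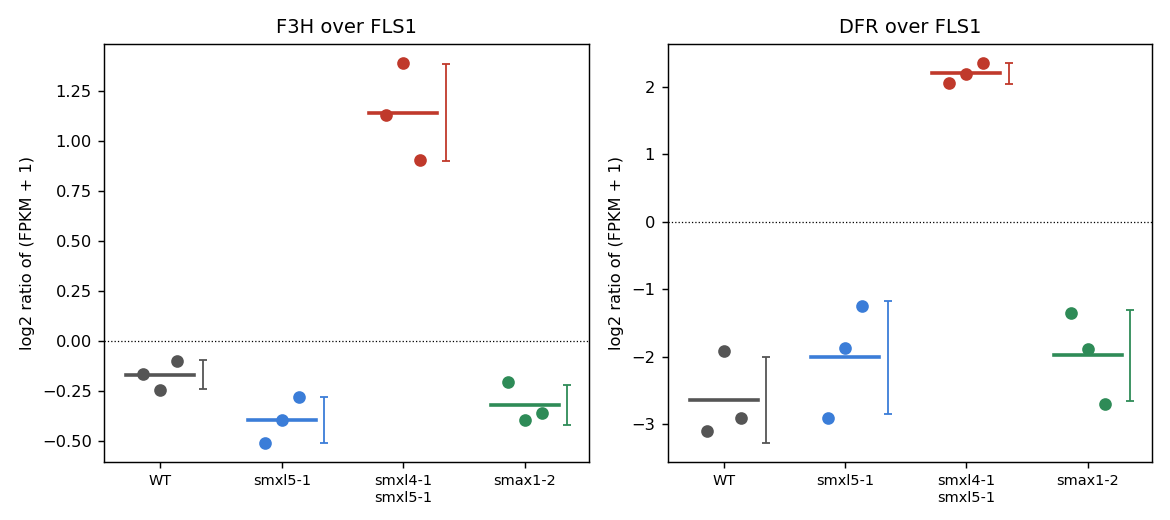
Log2 ratios of (FPKM + 1) of F3H over FLS1 (left) and DFR over FLS1 (right) in each library, by genotype; lines are means, bars at the side are 1 SD over n = 3, and the dotted line at 0 marks equal values. All double mutant libraries lie above 0 in both panels and all other libraries lie below it.

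The steps around these genes are described by how many were called, where 1.13% of all genes were called in the double mutant against WT. Differences between the steps were not tested. Of 8 genes at the entrance to phenylpropanoids, the PAL, C4H and other 4CL genes that feed lignin as well, none was called. Their median log2 fold change was 0.34, against 0.07 over all genes. The libraries of 3 of the 8, namely 4CL1, 4CL2 and PAL3, did not overlap those of WT and lay higher. The smallest p-values there were those of 4CL1 (53.4 to 63.8 FPKM in WT and 68.0 to 168 in the double mutant, adjusted p = 0.310), 4CL2 (adjusted p = 0.334), PAL3 (adjusted p = 0.437) and PAL1 (adjusted p = 0.566). Of 8 genes that modify flavonols or the ring they derive from, 7 were tested and 2 were called higher, with none lower and a median of 0.20. UGT78D2, which adds glucose to flavonols and anthocyanins, had 18.2, 21.1 and 18.1 FPKM for WT and 48.0, 45.4 and 40.6 for the double mutant (log2 fold change 1.18, adjusted p = 0.000427). TT7, the flavonoid hydroxylase that adds a second hydroxyl to the B ring, had 3.54, 2.48 and 2.73 FPKM for WT and 14.3, 18.2 and 8.43 for the double mutant (log2 fold change 1.85, adjusted p = 0.0139). TT7 was not called when WT replicate 2, WT replicate 3 or the first double mutant replicate was left out (adjusted p up to 0.0682). OMT1 (-0.20, adjusted p = 0.563), a methyltransferase, and RHM1 (0.23, adjusted p = 0.739), which supplies the rhamnose that UGT78D1 uses, did not pass.

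Among 7 anthocyanin enzymes and carriers 6 were called higher and none lower in the double mutant against WT, with a median log2 fold change of 3.61. Like the members and the other lists, these genes were chosen with earlier results of these data known. DFR went from 1.18, 3.14 and 1.51 FPKM among WT libraries to 104, 94.2 and 99.7 among those of the double mutant (log2 fold change 5.15, adjusted p = 0.000331). LDOX, the next enzyme, was at 2.63 to 4.22 FPKM in WT and 60.5 to 88.7 in the double mutant (4.14, adjusted p = 6.06e-05). GSTF12, needed to bring anthocyanin into the vacuole, was at 2.86 to 4.32 FPKM in WT and 48.7 to 55.9 in the double mutant (3.61, adjusted p = 7.85e-05). UGT79B1, an anthocyanin xylosyltransferase, was listed at 0 in the 3 WT libraries and reached 23.9, 19.9 and 18.5 FPKM with the double mutation (adjusted p = 0.00503). UGT75C1, an anthocyanin glucosyltransferase, was the 1 gene of this list not called (0.81, adjusted p = 0.519). Against smxl5-1, 6 of these 7 were called higher in the double mutant, and against smax1-2, 5. The log2 fold changes of CHS, CHIL and F3H (1.33, 1.26 and 1.63) lay below those of DFR, LDOX and GSTF12, which is a description and not a test.

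**Figure D4:**
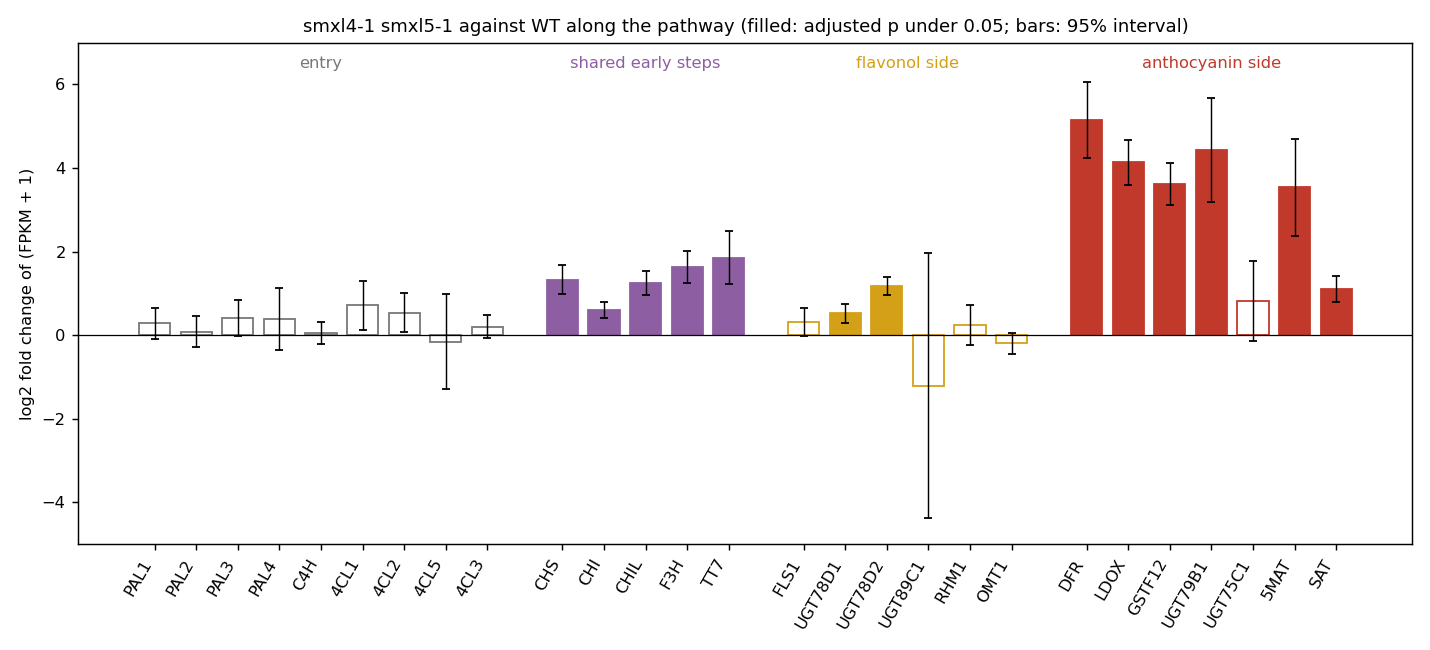
Log2 fold change of (FPKM + 1) in the double mutant against WT (vertical axis) for genes in pathway order, from the phenylpropanoid entrance to the anthocyanin side, with 95% intervals; filled bars have an adjusted p under 0.05. The entrance bars are open, the early bars from CHS to TT7 lie from 0.60 to 1.85, FLS1 is open at 0.31, and 6 of 7 anthocyanin bars are filled (the height of UGT79B1, listed at 0 in WT, depends on the 1 FPKM added).

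Among 10 anthocyanin regulators 5 could be tested, 1 was higher and 1 lower (median 0.23). PAP1 was listed at 0 in WT and reached 13.0, 18.5 and 12.9 FPKM with the double mutation (adjusted p = 0.00141). MYBL2, a repressor of the pathway, had 76.8, 79.1 and 82.4 FPKM for WT and 36.1, 39.6 and 41.2 for the double mutant (log2 fold change -1.01, adjusted p = 0.00166). EGL3, a bHLH partner of the MYBs, did not pass (1.02, adjusted p = 0.357), nor did CPC (0.23, adjusted p = 0.693). Of 9 genes that carry light and UV-B signals to the pathway none was called in the double mutant against WT (median -0.04), with the smallest p-values for BBX21 (adjusted p = 0.209), UVR8 (adjusted p = 0.312), BBX22 (adjusted p = 0.373) and COP1 (adjusted p = 0.801). Against smxl5-1, 2 of the 9 were called lower and none higher in the double mutant, BBX21 (log2 fold change -0.55, adjusted p = 0.0293) and BBX22 (-0.42, adjusted p = 0.0364). BBX21 kept that call in 2 of the 6 fits that omit a library and BBX22 in 0 (adjusted p up to 0.0695 and 0.0846). HY5, which is known to bind the G-box of CHS, stood at 17.5 to 20.3 FPKM in WT and 18.0 to 21.3 FPKM in the double mutant (log2 fold change 0.05, adjusted p = 0.919), named here after its values were seen. Of 8 genes of the seed-coat tannin branch TTG2 alone was tested, and it was not called (adjusted p = 0.788).

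Of 9 genes known to restrain the pathway, repressor MYBs, SPL9 and the Kelch F-box proteins that mark its enzymes for breakdown, the double mutant against WT had none called higher and 1 called lower (median -0.13). It was KFBCHS, whose protein targets CHS for degradation. KFBCHS had 121, 114 and 120 FPKM for WT and 71.7, 67.4 and 76.7 for the double mutant (log2 fold change -0.71, standard error 0.132, adjusted p = 0.0339). The call was lost whichever of these 6 libraries was left out (adjusted p from 0.0687 to 0.131). For smxl5-1 it had 84.9, 122 and 95.2 FPKM and for smax1-2 111, 85.8 and 102, all above the double mutant. KFB20 (-0.51, adjusted p = 0.419), KFB39 (0.27, adjusted p = 0.501) and KFB50 (-0.13, adjusted p = 0.582) did not pass there. Against smxl5-1, 2 of the 9 were called lower in the double mutant, KFB01 (log2 fold change -1.09, adjusted p = 0.00868) and KFB50 (-0.39, adjusted p = 0.0284). KFB01, whose protein targets PAL enzymes and which was named after its values were seen, was the 1 gene of this list called in smxl5-1 against WT, at 26.2, 37.2 and 25.3 FPKM against 14.9, 13.96 and 15.1 (log2 fold change 0.95, adjusted p = 0.0464). This last call was lost whichever 1 of its 6 libraries was omitted (adjusted p from 0.0699 to 0.167), and that of KFB50 in 4 of 6 fits (up to 0.0795), while KFB01 against smxl5-1 was called in all 6. In the double mutant KFB01 stood at 15.1, 11.7 and 12.8 FPKM, overlapping WT.

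Of 12 relatives of CHS, CHI and FLS1, 7 were tested, and none was called in the double mutant against WT (median -0.23). FLS5, a relative of FLS1, had 109, 99.5 and 111 FPKM for WT and 73.1, 53.7 and 76.1 for the double mutant, without overlap (log2 fold change -0.66, adjusted p = 0.175), and was called lower against smxl5-1 (-0.95, adjusted p = 0.0316), though not without smxl5-1 replicate 1 or any 1 of the 3 double mutant libraries (adjusted p up to 0.0844). FAP3, a fatty-acid binding relative of CHI, was at 53.1 to 55.8 FPKM in WT and 42.5 to 48.2 FPKM in the double mutant (adjusted p = 0.230). FLS3 (adjusted p = 0.499) and FAP2 (adjusted p = 0.627) did not pass either.

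The genes whose course over the 12 libraries was most like that of CHS were ranked by the root mean square difference of log2(FPKM + 1), each gene centred on its own mean, over 19655 genes, whose median difference from CHS was 0.649. UGT78D2 was the nearest, at 0.177. It was followed among genes listed in every group by AT2G23000 (scpl10) at 0.194, the sinapoyltransferase gene of the anthocyanin list. F3H ranked 4 (0.220), AT1G68570 was at 0.228, CHIL ranked 7 (0.228), and ICS2, an isochorismate synthase, was at 0.239. The rule also named JMT (0.187), a jasmonic acid methyltransferase, and AT5G46140 (0.221). Both were at 0 in the 9 other libraries and averaged 1.23 and 1.56 FPKM in the double mutant, so they entered the ranking through those 3 libraries alone and their distances depend on the filter and on the 1 FPKM added. CHI ranked 62 and UGT78D1 77. 4CL3 ranked 1166, FLS1 4000, MYB111 6680 and MYB12 8150, so their courses were no nearer to CHS than those of many other genes. Means of UGT78D2 were 19.2 FPKM in WT, 21.6 in smxl5-1, 44.7 in the double mutant and 20.4 in smax1-2.

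**Figure D5:**
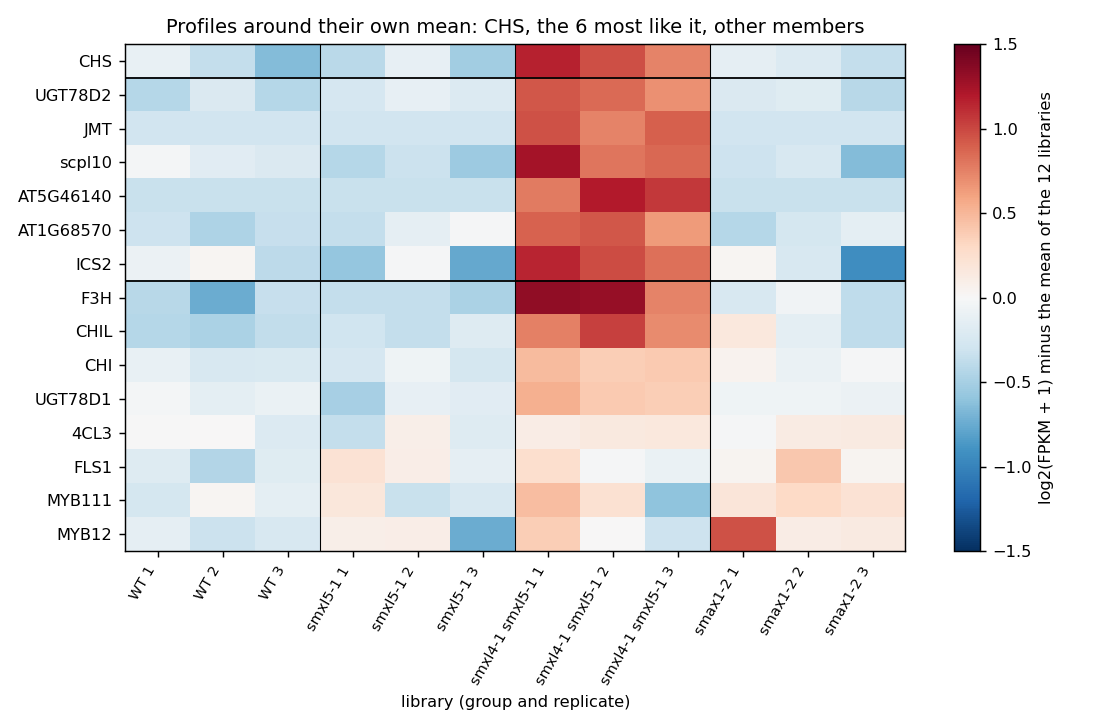
Course over the 12 libraries (columns) of CHS, of the 6 other genes named as most like it (JMT and AT5G46140 are at 0 outside the double mutant) and of the other tested members (rows); colour is log2(FPKM + 1) minus the gene's mean over the 12 libraries. The 3 double mutant columns are red for CHS, these 6 genes, F3H and CHIL, paler for CHI and UGT78D1, and mixed for FLS1, MYB111 and MYB12, whose double mutant libraries differ in sign from each other or lie near 0.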

How the data were processed

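The submitters' processing notes name TopHat2 2.0.14 as aligner and TAIR10 as build. The header names are those Cuffcompare writes, which is an inference from the headers; the sources used here do not give assembler, settings, strand or annotation. The authors, per the series text, used DESeq2, and a table of that test is not analysed here. Per the file headers each row is 1 assembled piece with its FPKM and bounds, its coverage (a signal of read depth), a percent of the most abundant piece of its locus, and lengths in bases; the authors deposited 1 table per library. Libraries were grouped by title and genotype label. The files of double mutant replicates 1 and 2 carry each other's number in their names, and titles were followed.

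A gene's value is the sum over its pieces with any of the codes =, c, j, e or o, 345442 of 353616, of FPKM times piece length over reference length, limited to 1. Genes with at least 1 FPKM in 3 libraries (19656) were tested with limma 3.58.1 in R 4.3.3 on log2(FPKM + 1), all 12 libraries and 4 groups in 1 fit. Fold changes on this scale understate those of low genes. P-values measure the spread between 3 pools per genotype. Tables, ratios and figures used Python 3.11.15, numpy 2.4.6, pandas 2.3.3, scipy 1.17.1 and matplotlib 3.10.9; upstream DNA came from RefSeq's TAIR10.1. The fit was tested on simulated data. Alternatives were another pseudocount (0.1), no filter, effective lengths (assumed fragments of 200 ± 80 bases), plain sums, fewer class codes, 2 scalings, pairs of genotypes alone, a replicate block and each library left out. Named were all members and, of each list, up to 4 genes with the smallest p in the double mutant against WT, and the 6 other genes most like CHS. UGT75C1, HY5 and KFB01 were named outside this rule. Members and lists were chosen with earlier results of these data known.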

Additional observations from a re-analysis of the deposited data

Results flagged for a closer look

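Double mutant replicate 2 listed pieces inside introns of 2 of the genes, a class that the gene values leave out. The piece within CHI is 87 bases long at 613.3 FPKM (deposited bounds 273.1 to 953.5), and the piece within CHIL is 77 bases long at 900.1 FPKM (bounds 318.9 to 1481). No such piece was listed in the other 11 libraries, WT included. The gene values of CHI (36.4 FPKM) and CHIL (136 FPKM) in this library do not hold them, and this library also listed the most pieces of all. A link between these facts was not tested.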

How the results depend on the processing

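Members called in the double mutant against WT, smxl5-1 and smax1-2 (5 each) came to 2, 2 and 2 with plain sums of FPKM and to 2, 2 and 2 with class codes = and j alone. Against WT they came to 4 with quantile normalization, median-of-ratios scaling, the pair alone or the replicate block, and against smxl5-1 to 6 with effective lengths. Against smax1-2 they came to 3 with quantile normalization, 3 with median-of-ratios scaling and 3 with a replicate block; with pairs of genotypes alone, 1 was called against smxl5-1 and 1 against smax1-2. Leaving out 1 library gave 4 to 4 against WT, 5 to 5 against smxl5-1 and 3 to 3 against smax1-2. The other 3 comparisons stayed at 0 in every fit. MYB111 against WT turned to -0.20 with effective lengths and ranged from -0.063 (without double mutant replicate 1) to 0.47 with 1 library left out. It was not tested with class codes = and j alone. The causes were not tested.

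Over all genes the 223 calls against WT came to 350 with effective lengths, 58 with plain sums, 125 with the replicate block and 95 to 149 with 1 library left out. The 588 calls against smxl5-1 came to 1069 with effective lengths, 80 with plain sums and 58 with the pair alone. The 304 calls against smax1-2 came to 433, 77 and 95 in the same order. Member counts by setting are to be read against these totals. Higher calls were 55.6% of the 223, 43.9% with median-of-ratios scaling and 45.9% with quantile normalization. Replicate numbers as given by the titles did not pair the libraries. Correlations of same-number deviations ranged from -0.102 to 0.067, and those of other-number deviations from -0.0668 to 0.167. The highest was that of smxl5-1 replicate 2 with double mutant replicate 1, whose file name carries the number 2. The highest by title was that of WT replicate 1 with double mutant replicate 1. A pairing by the numbers in the file names was not tested.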
